A study of Homo sapiens with 30 samples.

Results

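RNA polymerase III makes a small set of abundant, short structured RNAs, and the members of that set looked at here are 7SL RNA (RN7SL1, RN7SL2, RN7SL3 and RN7SL4P), 7SK RNA (RN7SK), and the RNA subunits of RNase MRP (RMRP) and RNase P (RPPH1). They were taken as every row of the raw count table whose gene symbol is among these 7, which gave 8 rows of 60664, since RMRP has 2 rows. The symbols were selected on measured values, the low levels of the 7SL copies in granule libraries relative to cytosol, so the difference between granule and cytosol is described here and not tested. The arsenite granule libraries were among those low values, and the tests of arsenite within the granule fraction use the same libraries.

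The samples were 30 libraries in 10 groups of 3, all from Flp-In T-REx HEK293 cells, a human embryonic kidney line in which a transgene is placed at a fixed site and turned on by adding tetracycline. There were 2 lines, each stably transfected with GFP-tagged TIA1a, which binds RNA and helps to build stress granules, in a wild-type form (WT) or with the change found in Welander distal myopathy (WDM), and a comparison of WDM with WT is a comparison of these transfected lines. Cytosol RNA came from untreated cells, cells given tetracycline, and cells given tetracycline with 0.5 mM NaAsO2 (arsenite, an oxidative stressor) for 60 min, in 18 libraries. Granule RNA, from a high-speed pellet captured through GFP, came from both lines with tetracycline alone and with tetracycline and arsenite, in 12 libraries. The parental line and a granule fraction of untreated cells were not analysed here. The titles call the first fraction cytosol and the protocol speaks of cellular extracts. Nothing in the labels says that replicates came from separate cultures, so p-values measure only the spread between these samples.

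7SL RNA is the scaffold of the signal recognition particle, which binds ribosomes making secreted and membrane proteins and brings them to the endoplasmic reticulum. 7SK RNA holds the kinase P-TEFb in an inactive particle with LARP7, MEPCE and HEXIM proteins and so restrains elongation by RNA polymerase II. RNase MRP RNA and RNase P RNA are related ribozyme subunits that act in ribosomal RNA and tRNA processing. All 4 are far more abundant in cells than typical messenger RNAs, and 7SL and 7SK have many pseudogenes, which makes the assignment of a read to a copy a central question for the values that follow.

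How far the 4 copies of 7SL differ sets how far their counts can be told apart. Positions are of the GRCh38 genome, as the count table's rows give them. RN7SL1 (ENSG00000276168) lies at chr14:49586580-49586878 on the plus strand, inside an intron of RPS29, which runs on the opposite strand. RN7SL2 (ENSG00000274012) lies at chr14:49862550-49862849 and RN7SL3 (ENSG00000278771) at chr14:49853616-49853914, both on the minus strand. RN7SL4P (ENSG00000263740), a pseudogene by its name, lies at chr3:15738515-15738809 on the plus strand, opposite an intron of ANKRD28. RN7SL1 and RN7SL2 were 98.3% identical over the alignment, with 4 mismatches and 1 gap, and RN7SL1 and RN7SL3 were 97.7% identical, with 7 mismatches. RN7SL4P was 85.7% identical to RN7SL1, with 24 mismatches and 20 gap positions.

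These differences leave short reads of RN7SL1 with few places to be told apart. Of all 75-base windows of RN7SL1, 22.7% occurred in none of the other 7SL-named rows of the table (680 rows searched, RN7SL1 included). The share was 15.9% for RN7SL2, 78.2% for RN7SL3 and 46.6% for RN7SL4P, and with 100-base windows it was 25.5%, 17.9%, 88.0% and 52.6%. How the authors' counting treated reads that fit several copies is not given in the sources used here. The copies are therefore given singly and as a sum of the 4, and the level of any single copy is uncertain.

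Only 3 of the 8 member rows held reads. RN7SL1 had 251577 counts over the 30 libraries, RN7SL3 had 52285 and RN7SL4P had 30584. RN7SL2, RN7SK, RPPH1 and both rows of RMRP were listed at 0 in all 30 libraries, so the 7SL sum is in effect the sum of 3 copies and these 5 rows entered no test.

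Each of the rows at 0 lies wholly or nearly so within the exons of another row on the same strand. RN7SL2 lies wholly within the lncRNA ENSG00000282885 (222 counts in all). RN7SK (ENSG00000283293, chr6:52995621-52995948, plus strand) lies wholly within a row named 7SK (ENSG00000202198), which was also at 0. RPPH1 (ENSG00000277209, chr14:20343075-20343407, minus strand) lies wholly within the lncRNA ENSG00000259001 (7 counts). The rows of RMRP (ENSG00000269900, chr9:35657751-35658018, and ENSG00000277027, chr9:35657754-35658017, minus strand) cover each other over 98.5% and 100% of their lengths. Of 400 short noncoding rows of up to 400 bases placed in this way, 400 (100%) were at 0 in every library, against 3905 of 4749 (82.2%) of those placed otherwise. A 0 in these rows thus cannot be read as absence of 7SK RNA, RNase MRP RNA, RNase P RNA or the RN7SL2 transcript, and none of the 4 has a measured level here.

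Pseudogenes of 7SL and 7SK held reads as well, those of 7SK while RN7SK itself was at 0. Of 676 other 7SL-named pseudogene rows, 160 had a count, but RN7SL5P on chromosome 9 (85.5% identical to RN7SL1) took 100411 counts, and the next highest row had 688. Of 293 7SK pseudogene rows, 79 had a count, and 3 had at least 1000: RN7SKP71 (18872 counts, 82.8% identical to RN7SK), RN7SKP203 (14553 counts, 85.0%) and RN7SKP255 (3618 counts, 83.2%). The sequence source of these reads cannot be told from gene counts, so the rows are described under their own names.

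The cytosol counts of RN7SL1 were nearly the same in every library, whatever the library's depth. In the WT line the 3 libraries had 11169, 11383 and 11805 reads untreated, 12218, 11758 and 11810 with tetracycline, and 11143, 11919 and 11699 with arsenite. In the WDM line they had 11424, 12017 and 11146 untreated, 10379, 11514 and 11498 with tetracycline, and 11501, 11619 and 11245 with arsenite. The highest count was 1.18-fold the lowest, while library totals ran from 7971585 to 18884843, a 2.37-fold range.

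RN7SL4P was almost as flat, with 1351 to 1863 reads over the 18 cytosol libraries. RN7SL3 moved more, from 1921 to 3865. On log scales the slope of count on library total over cytosol libraries was 0.09 for RN7SL1, 0.10 for RN7SL4P and 0.60 for RN7SL3, against a median slope of 1.07 over 10807 rows with at least 50 counts in each library. RN7SL1 also had the most counts per kb of all rows in the cytosol. The 100 rows with most counts per kb had a median slope of 0.65 there, or 0.80 within groups. A slope of 1 is a count proportional to depth.

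In the granule fraction the slopes were taken within groups, because arsenite libraries were deeper (18864056 to 27419145 counts) than most libraries with tetracycline alone (5906167 to 25176605). They were 0.20 for RN7SL1, 0.53 for RN7SL4P and 1.00 for RN7SL3, against a median of 1.01 over 10524 rows. The median was 0.99 over the 100 rows with most counts per kb. Dividing by the library total thus turns a flat count of RN7SL1 into a level that falls as depth grows: the WDM tetracycline cytosol libraries of 7971585, 10815398 and 18884843 counts had 1300, 1060 and 609 CPM (counts per 1000000 of the library total). The submitters' processing notes name Picard, a toolkit that can remove duplicate reads among other uses. Its use here is not given in the sources used here, and its part in the flat counts was not tested. Levels and differences are given below beside the raw counts for this reason.

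**Figure D1:**
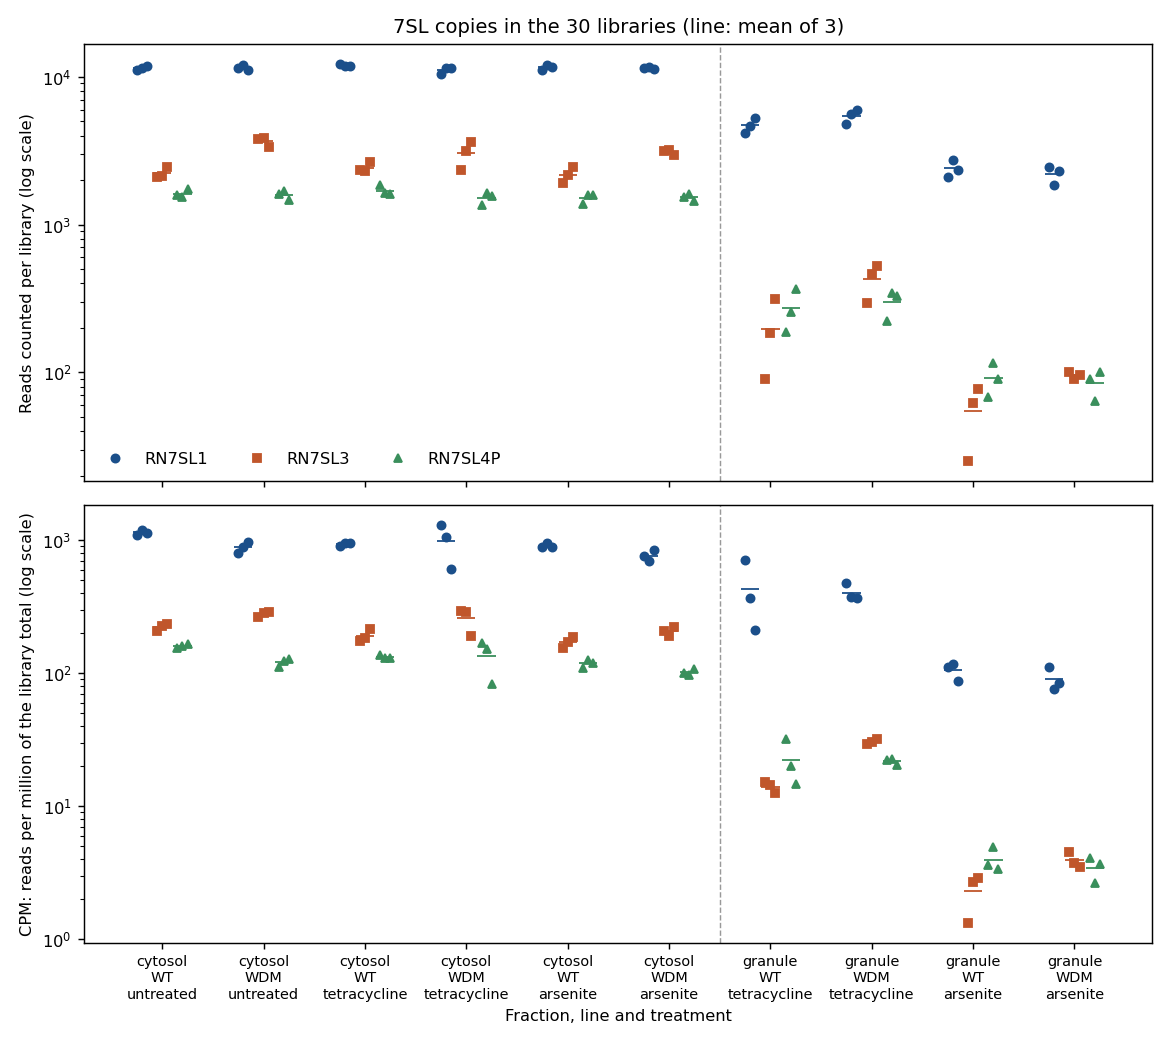
Reads counted (upper panel) and CPM (lower panel), both on log axes, for RN7SL1, RN7SL3 and RN7SL4P in each of the 30 libraries, by fraction, line and treatment, with short lines at the mean of 3. RN7SL1 sits between 10379 and 12218 reads in all cytosol libraries and between 1848 and 5989 in granule libraries.

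**Figure D2:**
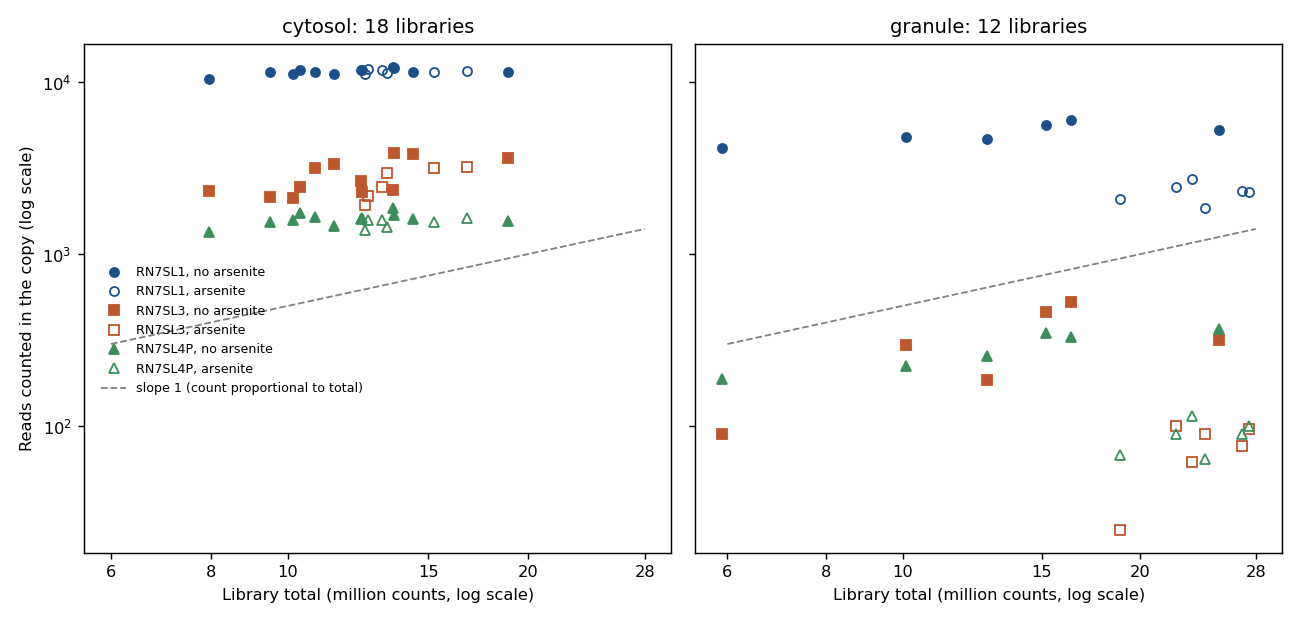
Reads counted in each copy against the library total, both on log axes, for 18 cytosol and 12 granule libraries, with arsenite libraries as open symbols and a dashed line of slope 1. RN7SL1 and RN7SL4P run flat across the cytosol totals, and the open symbols of the granule panel lie below the filled ones.

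The level of 7SL RNA fell in granules with arsenite in both lines. The set was chosen on low granule values that included these arsenite libraries. The p-values and ranks given for its copies and their sum here are therefore not independent of that choice. In WT granules RN7SL1 had 4163, 4674 and 5287 reads with tetracycline alone and 2104, 2748 and 2340 with arsenite. In WDM granules it had 4780, 5631 and 5989 reads with tetracycline alone and 2466, 1848 and 2300 with arsenite. The raw counts of the treatments did not overlap in either line, although the arsenite libraries were mostly the deeper ones.

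Scaled to depth, RN7SL1 in granules was 427 ± 253 CPM (mean ± SD, n = 3) with tetracycline and 106 ± 16.5 with arsenite in WT, and 404 ± 60.8 and 90.5 ± 18.3 in WDM. Its log2 fold change was -2.0 (SE 0.300, edgeR quasi-likelihood adjusted p = 0.000125) in WT and -2.23 (SE 0.302, edgeR adjusted p = 2.6e-05) in WDM, which is 3.99-fold and 4.68-fold lower. In WT the wide spread with tetracycline came with a wide spread of depth, since the libraries of 5906167, 12806659 and 25176605 counts had 705, 365 and 210 CPM. The deepest of these, close in depth to the WT arsenite library of 26935119 counts, had 5287 reads of RN7SL1 against 2340 there, or 210 against 86.9 CPM. In WDM every arsenite library (22179071 to 27419145 counts) was deeper than every tetracycline library (10085902 to 16335526). The parts of depth and of arsenite in the size of the scaled fall cannot be told apart there. In raw reads RN7SL1 averaged 5467 ± 621 with tetracycline and 2205 ± 320 with arsenite in WDM.

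RN7SL3 fell further. WT granules had 90, 185 and 315 reads with tetracycline and 25, 62 and 77 with arsenite, and WDM granules had 296, 462 and 524 and then 100, 90 and 96. In CPM the WT libraries had 15.2, 14.4 and 12.5 with tetracycline and 1.33, 2.67 and 2.86 with arsenite, and the WDM libraries had 29.3, 30.4 and 32.1 and then 4.51, 3.73 and 3.50. The log2 fold change was -2.58 (SE 0.220, edgeR adjusted p = 2.25e-08) in WT and -3.04 (SE 0.209, edgeR adjusted p = 1.37e-10) in WDM, which is 5.99-fold and 8.23-fold lower. In WDM only 3 of 18366 genes tested had a lower fold change.

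RN7SL4P had 189, 256 and 369 reads in WT granules with tetracycline and 68, 115 and 90 with arsenite. In WDM granules it had 224, 346 and 331 and then 90, 64 and 100. Neither pair of groups overlapped, and the log2 fold change was -2.44 (SE 0.241, edgeR adjusted p = 3.39e-07) in WT and -2.72 (SE 0.241, edgeR adjusted p = 2.51e-08) in WDM.

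All 3 member rows with reads thus fell in each line, while edgeR called 30.6% of 18366 genes in WT, with 16.5% rising and 14.1% falling, and 36.3% in WDM, with 18.7% rising and 17.7% falling. The 7SL sum fell by 2.03 on the log2 scale in WT (SE 0.272, edgeR adjusted p = 2.06e-05) and fell by 2.29 in WDM (SE 0.274, edgeR adjusted p = 2.92e-06), where the median of all genes was -0.03 and 0.01. Without the shallowest WT tetracycline library the WT value was -1.52. With every library given the same size, a setting chosen after the data were seen, the WT value was -1.03 and no longer passed the test (edgeR adjusted p = 0.185). The difference between the lines in this response was -0.26 for the sum (SE 0.370, edgeR adjusted p = 0.808). None of the 3 copies was called for it by edgeR or DESeq2, and none had an unadjusted p under 0.05; over all genes edgeR called 0 (0%), with 2329 at an unadjusted p under 0.05, and DESeq2 called 9.

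Other short RNAs were lower with arsenite at the median too. Of 112 rows of up to 400 bases tested in granules, 7SL rows left out, 28 (25.0%) were called lower and 3 higher with arsenite in WT, with a median log2 fold change of -0.68. In WDM 35 (31.2%) were called lower and 3 higher, with a median of -0.84. Of all genes, 14.1% were called lower in WT and 17.7% in WDM, with medians of -0.03 and 0.01. Of the short structured RNAs made by RNA polymerase II, such as the spliceosomal U RNAs and box C/D RNAs, 9 of 29 listed were tested; 3 were called lower in WT and 4 in WDM, and none higher. SNORD13 was among them in both lines (-1.87, SE 0.351, edgeR adjusted p = 0.0003 in WT; -1.53, SE 0.337, edgeR adjusted p = 0.000903 in WDM).

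Markers of the fractions moved beside these values. The summed level of 5 cytosolic messenger RNAs (GAPDH, ACTB, EEF1A1, TPT1 and ENO1) was 2785 to 4347 CPM in granules with tetracycline and 1781 to 2164 CPM with arsenite. The summed level of 4 nuclear RNAs (NEAT1, MALAT1, KCNQ1OT1 and MEG3) was 2244 to 3566 CPM and 2243 to 3316 CPM. MALAT1 among them fell in both lines (-0.82 and -0.62). Of the 3 tested, 1 was called lower in each line and none higher, with medians of -0.43 in WT and 0.25 in WDM. The messenger RNAs translated at the endoplasmic reticulum went the other way in WT, where 4 of 6 rose (HSPA5, PDIA4, CANX and PDIA6, at 0.64, 0.62, 0.59 and 0.49), with a median of 0.54. In WDM 1 of 6 rose (HSPA5, 0.71), near the share over all genes, with a median of -0.04. In granules with arsenite 16.5% of all genes were called higher and 14.1% lower in WT, and 18.7% and 17.7% in WDM. In cytosol 5 of the 6 fell with arsenite in each line, with medians of -0.63 and -0.55, where 15.3% and 14.8% of all genes were called lower. The part of cytosolic RNA carried into the pellet in these values was not tested. In bulk samples such as these, fewer granules captured and less RNA per granule cannot be told apart.

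**Figure D3:**
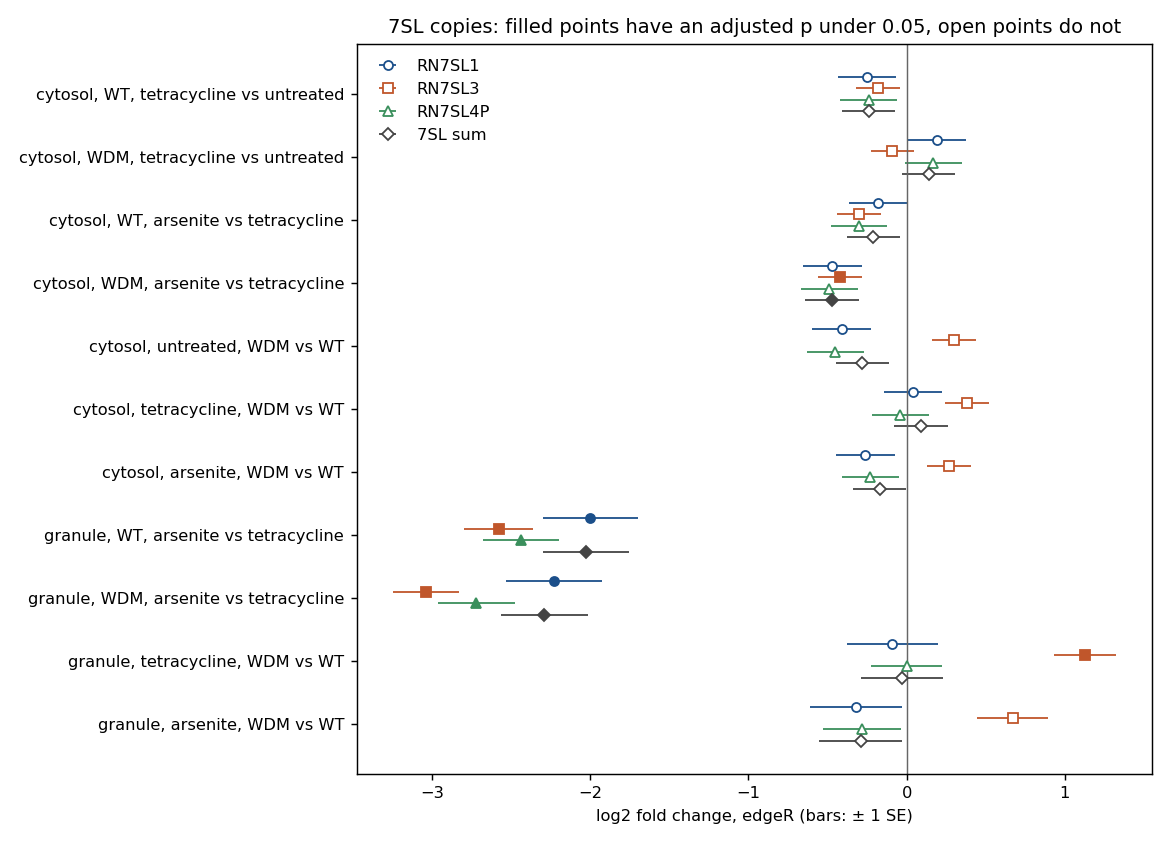
Log2 fold changes from edgeR with bars of 1 SE for RN7SL1, RN7SL3, RN7SL4P and the 7SL sum in 7 cytosol and 4 granule comparisons, filled where the adjusted p is under 0.05. The 8 values for arsenite in granules lie between -3.04 and -2.0, and the cytosol values lie between -0.49 and 0.38.

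In granules with tetracycline RN7SL3 differed between the lines. It was 14.1 ± 1.40 CPM in WT and 30.6 ± 1.38 in WDM (n = 3 each), with no overlap. It was called higher in WDM, at a log2 fold change of 1.13 (SE 0.196, edgeR adjusted p = 0.000325), or 2.19-fold, where edgeR called 5.55% of genes (2.6% higher, 2.95% lower). It was the only copy called of 3, and its value stayed between 1.02 and 1.19 when each library was left out in turn, with every call kept. With every library given the same size it was 1.12 and no longer called (edgeR adjusted p = 1). With arsenite the difference was 0.67 (SE 0.222, edgeR adjusted p = 0.0606) and did not pass by edgeR, while DESeq2 called it (0.66, adjusted p = 0.041). Of all genes, edgeR called 7.95% there (4.11% higher, 3.84% lower).

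For RN7SL1 the difference of WDM from WT in granules was -0.09 (SE 0.289) with tetracycline and -0.32 (SE 0.290) with arsenite. For RN7SL4P it was -0.00 (SE 0.223) and -0.28 (SE 0.246). The sum gave -0.03 (SE 0.261) and -0.29 (SE 0.263). None of these 6 passed (edgeR adjusted p from 0.505 to 0.997).

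The ratio of RN7SL3 to RN7SL1 within a library does not use the library total. It can still move with depth, because RN7SL3 counts rose more steeply with depth than RN7SL1 counts. As a percent of RN7SL1 counts, RN7SL3 in cytosol was 18.8, 18.9 and 20.7 in untreated WT and 33.4, 32.2 and 29.8 in untreated WDM. With tetracycline it was 19.3, 19.5 and 22.4 in WT and 22.5, 27.4 and 31.6 in WDM, and with arsenite 17.2, 18.2 and 20.9 in WT and 27.5, 27.6 and 26.2 in WDM. Within each treatment every WDM library was above every WT library, though with tetracycline the nearest values were 22.4 and 22.5.

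In granules the ratio was smaller and the order of the lines was the same. It was 2.16, 3.96 and 5.96% in WT and 6.19, 8.20 and 8.75% in WDM with tetracycline, and 1.19, 2.26 and 3.29% in WT and 4.06, 4.87 and 4.17% in WDM with arsenite. The ratio was 1.46-fold higher in WDM in cytosol (log2 difference 0.55, exact permutation of the line labels within treatments, two-sided p = 0.00025, 9 against 9 libraries) and 2.08-fold higher in granules (1.06, exact permutation p = 0.005, 6 against 6). Both are the smallest p these designs allow. This ratio was chosen after its values were seen, so these p-values do not count as a test of a line difference. Permuting the line labels also cannot separate line from depth. RN7SL4P as a percent of RN7SL1 ran from 12.3 to 15.2% in the cytosol libraries of both lines, and RN7SL5P from 39.8 to 43.3%.

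Depth moved with the line in part of these groups. In cytosol the WDM libraries were all deeper than the WT libraries untreated (11433211 to 14339211 counts against 9500101 to 10362221) and with arsenite (13295864 to 16761512 against 12499022 to 13105930), so line and depth cannot be told apart there. With tetracycline the WDM range (7971585 to 18884843) spanned the WT range (12336703 to 13546512). In granules the ranges overlapped with tetracycline (10085902 to 16335526 in WDM, 5906167 to 25176605 in WT) and with arsenite (22179071 to 27419145 and 18864056 to 26935119). Within groups the slope of count on depth was 0.49 for RN7SL3 and 0.12 for RN7SL1 in cytosol, and 1.00 and 0.20 in granules. The ratio thus tended to rise with depth within groups. The ratio at matched depth was not tested.

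**Figure D4:**
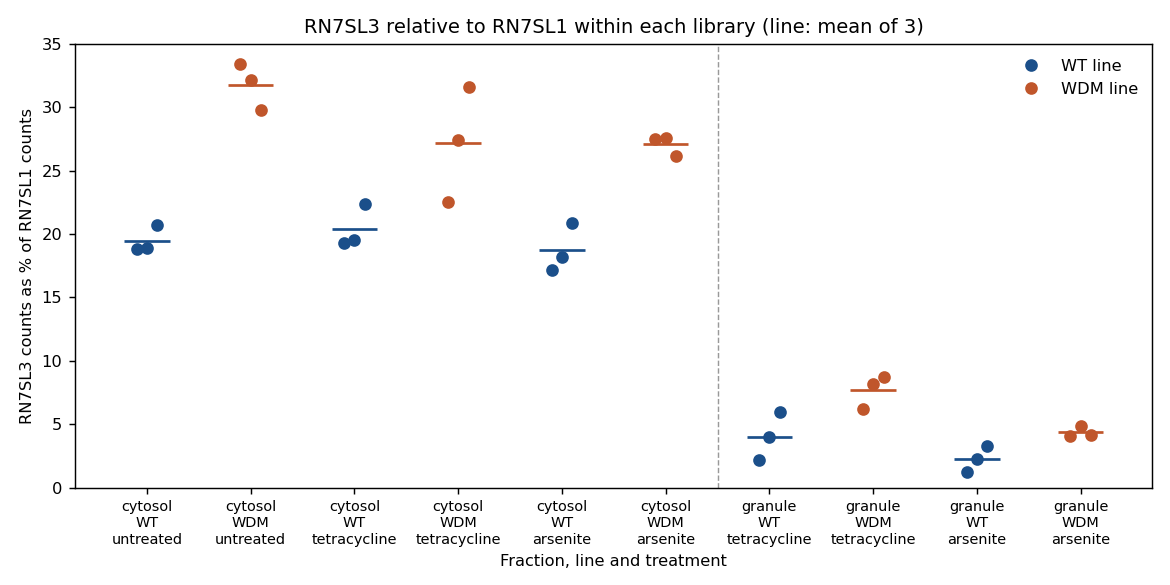
RN7SL3 counts as a percent of RN7SL1 counts in each of the 30 libraries, by fraction, line and treatment, with lines at the mean of 3. WDM libraries lie above WT libraries in each treatment of each fraction, from 22.5 to 33.4% against 17.2 to 22.4% in cytosol and from 4.06 to 8.75% against 1.19 to 5.96% in granules.

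In the cytosol no change of 7SL RNA with tetracycline passed the test, and the response to arsenite was small. With tetracycline against untreated cells the 7SL sum changed by -0.24 (SE 0.169, edgeR adjusted p = 0.45) in WT and by 0.14 (SE 0.169, edgeR adjusted p = 0.706) in WDM. None of the 3 copies was called by edgeR or DESeq2 in either line, and none had an unadjusted p under 0.05, where edgeR called 5.31% of 16670 genes in WT, with 2.93% rising and 2.39% falling, and 6.3% in WDM, with 3.07% rising and 3.23% falling.

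With arsenite against tetracycline the sum changed by -0.21 (SE 0.169, edgeR adjusted p = 0.37) in WT. No copy was called there by edgeR or DESeq2, RN7SL3 alone had an unadjusted p under 0.05, and 29% of all genes were called (13.7% higher, 15.3% lower). In WDM the sum fell by 0.47 (SE 0.170, edgeR adjusted p = 0.0471) and RN7SL3 by 0.42 (SE 0.138, edgeR adjusted p = 0.0307), 1 of 3 copies, where 28.8% of genes were called (14.1% higher, 14.8% lower). RN7SL1 was at -0.47 (SE 0.187, edgeR adjusted p = 0.0674) and RN7SL4P at -0.49 (SE 0.180, edgeR adjusted p = 0.0508). DESeq2 called both (-0.47, adjusted p = 0.0354, and -0.50, adjusted p = 0.0214), and with no filter on low counts edgeR called RN7SL4P (adjusted p = 0.000252).

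The calls on RN7SL3 and the sum in WDM each ended under library size alone (-0.32 and -0.37). That on the sum was also lost without WDM tetracycline replicate 1 (-0.25), without replicate 2 of that group (-0.39), without WDM arsenite replicate 1 (-0.44) and without its replicate 2 (-0.42). With every library given the same size the value was 0.04, and the raw sums were 14064, 16680 and 16303 reads with tetracycline and 16189, 16450 and 15630 with arsenite, which overlap.

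Between the lines in cytosol the sum differed by -0.28 (SE 0.169, edgeR adjusted p = 0.326) untreated, 0.09 (SE 0.169, edgeR adjusted p = 0.777) with tetracycline and -0.17 (SE 0.169, edgeR adjusted p = 0.579) with arsenite. RN7SL3 was the copy with positive values throughout, at 0.30, 0.38 and 0.27 (SE 0.138 each, edgeR adjusted p = 0.197, 0.0752 and 0.254), while RN7SL1 was at -0.41, 0.04 and -0.26. No copy was called by DESeq2, or by edgeR with all 18 libraries, in any of the 3, where edgeR called 9.78% of genes untreated (4.19% higher, 5.6% lower), 12.6% with tetracycline (5.79% higher, 6.8% lower) and 10.4% with arsenite (4.98% higher, 5.37% lower). With only the untreated groups fitted, edgeR called RN7SL1 (-0.41, adjusted p = 8.05e-06) and RN7SL4P (-0.45, adjusted p = 3.77e-08) lower and RN7SL3 (0.29, adjusted p = 4.34e-05) higher in WDM. With no filter on low counts it called RN7SL4P (-0.39, adjusted p = 0.00763) and RN7SL3 (0.35, adjusted p = 0.00452) untreated and RN7SL3 with tetracycline (0.40, adjusted p = 0.000627). In the fit of all 18 libraries all 3 copies had an unadjusted p under 0.05 untreated, RN7SL3 alone with tetracycline, and none with arsenite. The differences between the lines in their responses to tetracycline and arsenite were 0.37 (SE 0.239) and -0.26 (SE 0.239) for the sum. No copy was called for them by edgeR or DESeq2 or had an unadjusted p under 0.05, where edgeR called 0.018% and 0% of genes (3 and 0, with 748 and 332 at an unadjusted p under 0.05).

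Ordered by the level of the 7SL sum, the groups formed 3 tiers. The cytosol groups ran from 1530 ± 61.3 CPM in untreated WT through WDM with tetracycline (1385 ± 453), untreated WDM (1287 ± 109), WT with tetracycline (1260 ± 44.5) and WT with arsenite (1200 ± 44.2) to WDM with arsenite (1073 ± 97.5). Each of these groups overlapped its neighbours in the order. The granule groups with tetracycline followed, at 463 ± 263 CPM in WT and 456 ± 60.1 in WDM, and those with arsenite came last, at 112 ± 16.9 in WT and 97.9 ± 19.4 in WDM. Neighbours overlapped within a tier and not between tiers.

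Per kb of exon, RN7SL1 ranked first among all rows in each cytosol group and in both granule groups with tetracycline, at 3833 ± 164 CPM per kb in untreated WT cytosol. With arsenite it ranked 6th in WT granules (353 ± 55.2 CPM per kb) and 9th in WDM granules (303 ± 61.1). RN7SL3 went from rank 17 in untreated WT cytosol (746 ± 48.0 CPM per kb) to rank 5844 in WT granules with arsenite (7.64 ± 2.79).

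Set against the cytosol of the same treatment, all 3 copies were low in granules, as the choice of the set had it. This is a description with no test. RN7SL1 was at a log2 ratio of -1.19 in WT and -1.32 in WDM with tetracycline, and at -3.10 and -3.15 with arsenite. RN7SL4P was at -2.68 and -2.64, then -4.90 and -4.95. RN7SL3 was lowest of the copies, at -3.82 and -3.08, then -6.19 and -5.79, and with arsenite 3 of 18141 genes were lower than it in each line.

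The sum stood at -1.5 and -1.62 with tetracycline, with 14.78% and 9.93% of genes below it, and at -3.42 and -3.53 with arsenite, with 0.9% and 0.77% below it. The granule arsenite libraries were also the deepest, and the part of scaling by depth in these ratios was not tested. In raw reads the sum was 14439 to 16450 in cytosol with arsenite and 2002 to 2925 in granules with arsenite. The messenger RNAs of the signal recognition particle proteins and receptor had a median log2 ratio of -1.48 and -1.12 with tetracycline and -1.37 and -1.62 with arsenite, where the median of all genes was 0.02 to 0.07.

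The fraction markers listed were cytosolic, nuclear and endoplasmic reticulum RNAs, with no granule marker among them. Of these only the nuclear RNAs summed higher in granules than in cytosol. The part of nuclear RNA in the pellet was not tested. Cytosolic messenger RNAs summed to 9471 to 13185 CPM in cytosol and 1781 to 4347 in granules, and nuclear RNAs to 202 to 860 and 2243 to 3566. Messenger RNAs translated at the endoplasmic reticulum (HSPA5, HSP90B1, CALR, PDIA4, PDIA6 and CANX) summed to 2805 to 5056 and 1024 to 2011. The HEK293 markers KRT8, KRT18, VIM, PAX2 and LHX1 were all present in both fractions, at sums of 823 to 1145 and 245 to 457 CPM. Of 6 markers of other cell types HBB was at 0 throughout, and their sum stayed between 0.24 and 1.41 CPM.

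**Figure D5:**
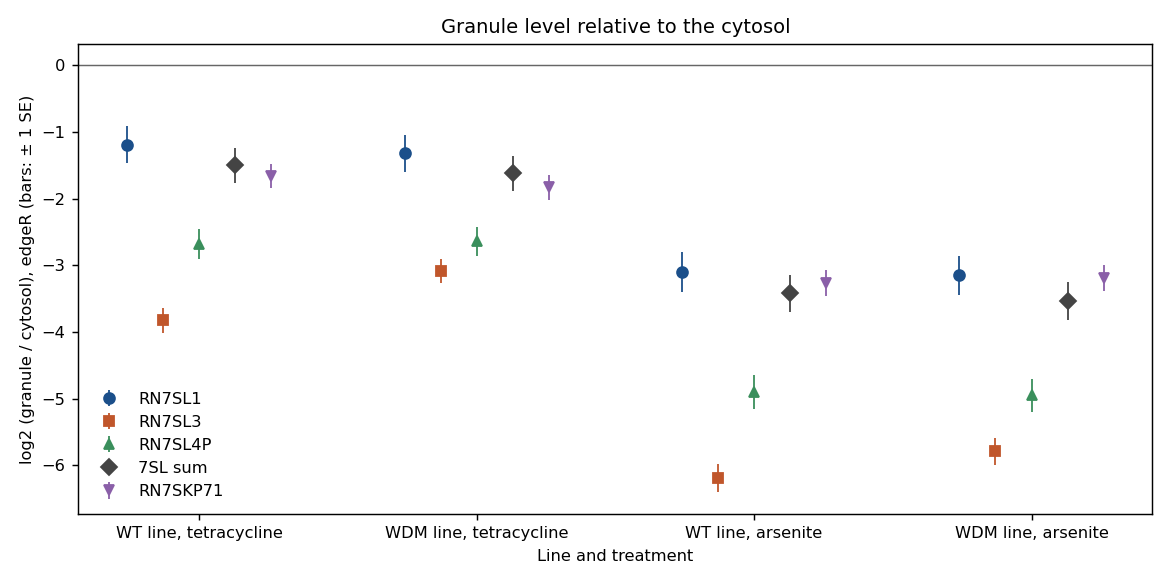
Log2 ratio of granule to cytosol level from edgeR with bars of 1 SE, for the 7SL copies, their sum and the 7SK pseudogene row RN7SKP71, by line and treatment, with no test. RN7SL3 lies lowest in each condition, from -3.08 to -6.19, and the arsenite values lie below the tetracycline values.

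Rows of 7SK pseudogenes give no measured level of 7SK RNA, since the source of their reads cannot be told. The 3 with reads to test fell with arsenite in granules as well. RN7SKP71 (ENSG00000201428, chr12:112267077-112267394) had 704 to 1015 reads in the cytosol libraries and 130 to 550 in granules. It was 24.8 ± 4.81 CPM in WT granules with tetracycline and 7.23 ± 1.45 with arsenite, and 20.9 ± 0.938 and 7.11 ± 1.43 in WDM, with no overlap between treatments in either line. It fell by 1.75 on the log2 scale in WT (SE 0.195, edgeR adjusted p = 1.48e-06) and fell by 1.63 in WDM (SE 0.193, edgeR adjusted p = 7.62e-07).

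RN7SKP203 was at -1.74 and -1.71 and RN7SKP255 at -1.79 and -1.56, so that 3 of 3 tested 7SK pseudogene rows were called lower in both lines. Of all genes, 14.1% were called lower in WT and 17.7% in WDM. The 7SL pseudogene row RN7SL5P fell too, at -1.99 (SE 0.227, edgeR adjusted p = 1.5e-06) in WT and -2.07 in WDM (SE 0.227, edgeR adjusted p = 3.33e-07). It was the only 1 called of 3 such rows tested, RN7SL4P left out, whose medians were -0.97 and -0.76. The granule counts of RN7SL5P went from 1250 to 1974 reads with tetracycline to 622 to 907 with arsenite over both lines. In the cytosol none of RN7SKP71, RN7SKP203, RN7SKP255 and RN7SL5P was called in the 7 comparisons of groups.

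The genes whose products work with the members are given by list, beside the share of all genes called. Of 8 messenger RNAs of the signal recognition particle and its receptor, 3 fell in the cytosol with arsenite in each line and none rose, with medians of -0.25 and -0.19, where 15.3% and 14.8% of all genes were called lower. In WT they were SRP14 (-0.41, SE 0.0963, edgeR adjusted p = 0.00388) and SRP9 (-0.35, SE 0.110, edgeR adjusted p = 0.0226), whose proteins form the Alu-domain dimer on 7SL, and SRPRB (-0.63, SE 0.143, edgeR adjusted p = 0.00369), a receptor subunit in the membrane of the endoplasmic reticulum. In WDM they were the same 3, at -0.35, -0.37 and -0.52.

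In granules with arsenite edgeR called 16.5% of all genes higher and 14.1% lower in WT, and 18.7% and 17.7% in WDM. In WT 2 of the 8 rose, SRP19 (0.55) and the receptor subunit SRPRA (0.62), and 1 fell, SRP72 (-0.45). In WDM 1 rose, SRPRA (0.75, SE 0.175, edgeR adjusted p = 0.00144), and 4 fell, SRP9 (-0.94, SE 0.171, edgeR adjusted p = 0.000141), SRP54, the GTPase that binds signal peptides (-0.70), SRP72 (-0.60) and SRPRB (-0.51). The medians were -0.04 and -0.54, against -0.03 and 0.01 for all genes. SRPRA rose and SRP72 fell in both lines, and no response of the list differed between the lines by edgeR. In levels, 1 of the 8 was called lower in WDM than in WT in cytosol with tetracycline. In granules with arsenite 1 was called lower in WDM too. Of all genes, 6.8% and 3.84% were called lower in these comparisons.

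Of 7 genes of the 7SK particle and P-TEFb, HEXIM1, the inhibitor that 7SK recruits, rose with tetracycline in cytosol in WT (0.74, SE 0.188, edgeR adjusted p = 0.0299) and in WDM (0.75, SE 0.189, edgeR adjusted p = 0.0236). It was the 1 gene of the 7 called there, where 2.93% and 3.07% of all genes were called higher. With arsenite CCNT2, a cyclin partner of CDK9, rose in cytosol in both lines (0.41 and 0.38), and HEXIM1 rose further in WDM (0.57). That is 1 of 7 in WT and 2 of 7 in WDM, where 13.7% and 14.1% of all genes were called higher. The WT share is near that over all genes. In granules with arsenite 3 rose in WT (CCNT1, CCNT2 and CDK9, at 0.81, 0.50 and 0.47) and none fell, where 16.5% of all genes were called higher and 14.1% lower. In WDM 3 rose (HEXIM1, MEPCE and CDK9, at 0.77, 0.52 and 0.45), and LARP7, which binds the 3′ end of 7SK, fell by 0.77 (SE 0.231, edgeR adjusted p = 0.0107). Of all genes, 18.7% were called higher there and 17.7% lower. Between the lines 1 of the 7 was called lower in WDM in cytosol with tetracycline, where 6.8% of all genes were.

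Of 11 genes for proteins of RNase P and RNase MRP, 10 were tested. With arsenite in granules 3 fell and 1 rose in WT, and 5 fell and 1 rose in WDM, where 14.1% and 17.7% of all genes were called lower and 16.5% and 18.7% higher. RPP40 had the lowest values, -1.38 (SE 0.254, edgeR adjusted p = 0.000237) in WT and -1.84 (SE 0.257, edgeR adjusted p = 6.17e-06) in WDM. RPP30 was at -0.81 and -0.91 and POP5 at -0.67 and -0.78, while RPP25 rose by 1.16 and 0.87. The medians were -0.13 and -0.47. In cytosol with arsenite none was called in WT and RPP25L fell in WDM (-0.31). Between the lines in cytosol, 2 of the 10 were called lower in WDM untreated. With tetracycline 1 was called higher and 2 lower, and with arsenite 1 higher and 1 lower. Of all genes, 4.19%, 5.79% and 4.98% were called higher there, and 5.6%, 6.8% and 5.37% lower. So few calls are no result about the list. None of the 10 was called between the lines in granules.

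The machinery of RNA polymerase III itself, 28 listed genes for its subunits and for TFIIIA, TFIIIB, TFIIIC, SNAPc, MAF1 and La (SSB), was tested in full. With arsenite in cytosol 5 fell and 1 rose in WT, and 4 fell in WDM, with medians of -0.14 and -0.10. The falls are near in share to those over all genes, 15.3% and 14.8%. GTF3A, the factor for 5S ribosomal RNA genes, fell in both (-0.37 and -0.35), as did SNAPC1 (-0.34 and -0.40) and SNAPC3 (-0.26 and -0.38), subunits of the complex that recognises 7SK and RNase P promoters.

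The same list held differences between the lines in cytosol. Of its 28 genes, 1 was called higher in WDM in each treatment. Called lower were 3 untreated, 4 with tetracycline and 3 with arsenite. Of all genes, 4.19%, 5.79% and 4.98% were called higher, and 5.6%, 6.8% and 5.37% lower. With so few genes called, this is no result about the list as a whole. In cytosol GTF3C1, the largest TFIIIC subunit, was lower in WDM in each treatment (-0.65, SE 0.0841, edgeR adjusted p = 1.98e-05 untreated, then -0.61 and -0.56). POLR3D (-0.35, -0.48 and -0.53) and POLR3E (-0.33, -0.44 and -0.45) were lower too. POLR3G, a subunit that marks an alternative form of the polymerase, was higher in each (0.35, SE 0.0954, edgeR adjusted p = 0.0234 untreated, then 0.45 and 0.52). In granules with tetracycline 1 of the 28 was called higher in WDM and 2 lower, against 2.6% and 2.95% of all genes. They were POLR3G (0.60), GTF3C1 (-0.84) and POLR3E (-0.55), in the same directions as in cytosol. Between the lines in granules with arsenite 1 of the 28 was called lower in WDM and none higher. With arsenite in granules 2 of the 28 rose and 4 fell in WT, and 4 rose and 5 fell in WDM. Of all genes, 16.5% were called higher and 14.1% lower in WT, and 18.7% and 17.7% in WDM. GTF3C4 rose in both lines (1.21 and 1.06) and POLR3D rose (0.75 and 0.78), while GTF3A fell (-1.14 and -1.31) and SSB fell (-0.67 and -0.94).

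Other products of RNA polymerase III were sparsely counted. Of 19 listed, 17 had a row, 4 were at 0 throughout (VTRNA2-1 and 3 rows of 5S ribosomal RNA) and 6 were tested. The library preparation removes ribosomal RNA. The tested rows were the vault RNAs VTRNA1-1, VTRNA1-2 and VTRNA1-3, BCYRN1 and 2 copies of U6 RNA.

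The vault RNA VTRNA1-3 rose with arsenite in cytosol. It had 30 to 59 reads per library with tetracycline and 110 to 129 with arsenite in WT, and 30 to 56 and 117 to 155 in WDM. It rose by 1.46 (SE 0.175, edgeR adjusted p = 1.68e-05), 2.75-fold, in WT and by 1.35 (SE 0.176, edgeR adjusted p = 3.96e-05), 2.54-fold, in WDM. Of all genes, 13.7% and 14.1% were called higher there. VTRNA1-2 had at most 3 reads per library with tetracycline and 7 to 20 with arsenite over both lines. VTRNA1-1 had 2 to 8 reads with tetracycline in WT and 14 in each arsenite library, and 3 to 6 and then 8 to 18 in WDM. Neither reached 10 reads in any cytosol library without arsenite, so they entered the fit through the libraries where they were high, and they are given as counts with no test.

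Of the other 3 listed rows, BCYRN1, RNU6-2 and RNU6-8, none was called in cytosol with arsenite in either line, and none of the 6 was called in granules with arsenite by edgeR. Nuclear RNA markers moved with VTRNA1-3 in cytosol: 2 of 3 tested rose in WT and 1 of 3 in WDM, where 13.7% and 14.1% of all genes were called higher. Their sum was 202 to 508 CPM with tetracycline and 534 to 587 with arsenite in WT, and 329 to 649 and 557 to 860 in WDM. The part of nuclear RNA in the vault RNA values was not tested.

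BCYRN1, a brain cytoplasmic RNA with an Alu-derived part like that of 7SL, differed between the lines. Its cytosol counts were 369 to 418 in untreated WT and 210 to 282 in untreated WDM, or 39.3 ± 0.932 against 19.2 ± 0.709 CPM. It was lower in WDM untreated (log2 fold change -1.07, SE 0.117, edgeR adjusted p = 2.24e-06), with tetracycline (-0.87, SE 0.120, edgeR adjusted p = 3.46e-05) and with arsenite (-1.02, SE 0.119, edgeR adjusted p = 4.1e-06), with no overlap of the lines in CPM in any treatment. With tetracycline it also fell in WT cytosol (-0.41, SE 0.115, edgeR adjusted p = 0.0407), the 1 row called of its list there. In granules its differences were -0.42 (SE 0.234) and -0.60 (SE 0.220), and neither passed (edgeR adjusted p = 0.375 and 0.0899).

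The genes whose log2 CPM most resembled that of the 7SL sum were not Pol III products. Over all 30 libraries, among 11507 genes, they were EEF1A1, a translation factor and one of the cytosolic markers above (Pearson r = 0.978), its pseudogene EEF1A1P5 (0.976) and NUP43 (0.968). Over the 18 cytosol libraries, among 11331 genes, they were RPS29 (0.916), RPL39 (0.889) and the pseudogene RPS3AP6 (0.880). The points share their library totals, and the r of the sum's log2 CPM with the log2 library total was -0.777 over 30 libraries and -0.972 over the 18. RPS29 is the gene whose intron holds RN7SL1 on the other strand. RN7SK, RMRP and RPPH1, at 0 in all libraries, have no pattern to compare.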

How the data were processed

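RNA-seq was deposited for 30 libraries of human HEK293 lines in 10 groups of 3, by fraction, line and treatment, with groups and replicate numbers from the titles. The authors deposited 1 table of raw counts over 60664 gene rows. Per the submitters' processing notes the tools were Trimmomatic, STAR, Picard and featureCounts and the build GRCh38. Their versions and settings, with the handling of duplicate, multi-mapping and overlapping reads, are not given in the sources used here. Of the identifiers, 60463 were found in GENCODE v44, all on the same chromosome, and 56693 with identical start and end. The copies were read from the GRCh38 genome and aligned with Biopython 1.88, and their sequences are not reported here.

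Tests used edgeR 4.0.16 (R 4.3.3), with filterByExpr (minimum count 10, minimum total 15), TMM factors, a group-means model and robust quasi-likelihood F-tests, with Benjamini-Hochberg adjustment over all genes and a threshold of 0.05. The 18 cytosol libraries (16670 genes, biological coefficient of variation 0.103) and the 12 granule libraries (18366 genes, 0.161) were fitted apart. Granule was set against cytosol over the 24 libraries that had received tetracycline (18141 genes), which gave no p-values. The sum of the 4 7SL copies was tested as 1 row in place of them. CPM is per 1000000 counts of the library total, without TMM factors. A count of 0 allows up to 3 counts in a library, for counting error only. Chi-square per degree of freedom between replicates was 1.63 to 40.7, so no library was a repeated deposit. The fits were tested on simulated data with 200 changed genes.

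The members and gene lists were chosen with earlier results of these data known. Genes named are the members, their sum, pseudogene rows with at least 1000 counts, listed genes with an adjusted p under 0.05, and the 3 genes most like the 7SL sum among those with a mean of at least 5 CPM (prior count 2). Not every listed gene called is named. The lists were other Pol III RNAs, signal recognition particle proteins, 7SK particle and P-TEFb, RNase P and MRP proteins, Pol III machinery, short structured RNAs of Pol II, and markers of nuclear RNA, cytosolic RNA, RNA translated at the endoplasmic reticulum, HEK293 cells and other cell types. Alternatives were a replicate block, RLE factors, scaling to library size alone, testing with no filter, only the groups compared, each library left out, DESeq2 1.42.0, a sum over all 7SL-named rows and, added after the data were seen, unscaled counts.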

Additional observations from a re-analysis of the deposited data

How the results depend on the processing

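Arsenite in granules kept its direction and call for all 3 copies and the 7SL sum under the replicate block, RLE factors, scaling to library size alone, testing with no filter, only the groups compared, DESeq2 and each library left out. The unscaled counts took the WT sum to -1.03 (called no longer), with RN7SL1 at -0.97 and RN7SL4P at -1.57 there. They left the RN7SL3 difference between the lines in tetracycline granules at 1.12, no longer called. This setting by construction ignores depth. All settings for arsenite in granules use libraries on whose low values the set was chosen.

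The fall of the sum with arsenite in WDM cytosol lost its call under library size alone (-0.37), the replicate block (-0.46), only the groups compared (-0.46) and the sum over all 7SL-named rows (-0.46). It ran from -0.72 to -0.25 with a library left out. RN7SL3 there lost its call under library size alone (-0.32), only the groups compared (-0.42) and 4 of the fits with a library left out. The untreated difference between the lines in cytosol gained a call with only those groups fitted (-0.29 for the sum, with all 3 copies called, RN7SL3 at 0.29 and RN7SL1 and RN7SL4P at -0.41 and -0.45). With no filter RN7SL3 was called with arsenite in WT cytosol (-0.26), as was RN7SL4P with only the groups compared (-0.26), and library size alone called RN7SL3 between the lines with tetracycline (0.43). The cause was not tested.

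Unscaled counts turned the sign of small cytosol values. For the sum these were WT tetracycline (0.07), WDM tetracycline (-0.10), WDM arsenite (0.04), the lines untreated (0.13), with tetracycline (-0.03) and with arsenite (0.07), and the line differences of the tetracycline (-0.17) and arsenite (0.11) responses. For RN7SL1 they were 0.06, -0.05, 0.04, 0.01 (lines untreated), -0.10 (lines with tetracycline), and -0.11 and 0.08 (responses). For RN7SL3 they were 0.12 (WT tetracycline), 0.03 (WDM arsenite), -0.40 and 0.19 (responses). For RN7SL4P they were 0.07, -0.06, 0.01, 0.01 (lines with arsenite), -0.14 and 0.18 (responses). In granules the line difference with tetracycline turned to 0.26 (sum), 0.22 (RN7SL1) and 0.15 (RN7SL4P).

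That granule difference, near 0, also turned under the replicate block (0.07 for the sum, 0.02 for RN7SL1, 0.03 for RN7SL4P), and for RN7SL4P under RLE factors (0.01) and library size alone (0.00). RN7SL4P between the lines in tetracycline cytosol turned under library size alone (0.01). None of these was called.

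With a library left out, some ranges reached or crossed 0, in part with a call gained. For WDM tetracycline in cytosol they were -0.08 to 0.39 (sum), -0.05 to 0.46 (RN7SL1), -0.20 to 0.11 (RN7SL3) and -0.03 to 0.45 (RN7SL4P). Between the lines with tetracycline in cytosol they were -0.13 to 0.34 (sum), -0.21 to 0.30 (RN7SL1) and -0.24 to 0.24 (RN7SL4P), and in granules -0.37 to 0.50 (sum), -0.44 to 0.46 (RN7SL1) and -0.27 to 0.32 (RN7SL4P). Line differences of responses ran from -0.02 to 0.29 (RN7SL3, tetracycline) and -0.48 to 0.00 (RN7SL4P, arsenite) in cytosol, and from -0.78 to 0.09 (sum) and -0.78 to 0.13 (RN7SL1) in granules. WDM tetracycline replicate 1 or 3 in cytosol, the shallowest and deepest library there, and WT tetracycline replicate 1 or 3 in granules gave most of these ends. Other ranges kept their sign but gained a call in at least 1 fit. With arsenite these were -0.74 to -0.23 (RN7SL1) and -0.77 to -0.29 (RN7SL4P) in WDM cytosol, and -0.39 to -0.19 (RN7SL3) in WT cytosol. Between the lines RN7SL3 ran from 0.27 to 0.58 with tetracycline in cytosol and from 0.44 to 0.88 with arsenite in granules. The line difference of the cytosol tetracycline response ran from 0.21 to 0.69 for RN7SL4P.

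The numbers of genes called, against which member counts are read, moved over 1.5 times in several comparisons. With arsenite in cytosol 4832 (WT) and 4805 (WDM) genes were called, against 2734 to 5893 and 1920 to 5683 under other settings. With tetracycline 886 in WT became 220 to 1287. Between the lines 1631 untreated became 1617 to 5463, and 2099 with tetracycline became 852 to 2852. The line difference in the tetracycline response gave 3, then 2 to 14, and in the granule arsenite response 0, then 0 to 44.

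Replicate numbers did not pair the libraries: same-number correlations of deviations ran from -0.188 to 0.653 in cytosol, where 8 of 18 libraries were closest to their own number, and from -0.408 to 0.55 in granules, 5 of 12. Under the replicate block the genes called moved over 1.5 times only for the tetracycline response between the lines (6, from 3), and beyond the values above no call on the members changed. Counts of 25 to 524 limit RN7SL3 in granules, and the flat counts of RN7SL1 and RN7SL4P limit every comparison across depths.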
